A study of Drosophila melanogaster with 7 samples.

Results

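Genes for the factors that start, extend and end protein synthesis were followed in ovarian germ cells of Drosophila melanogaster after knockdown of Atx2, the fly Ataxin-2 gene. Every gene whose symbol begins with eIF, eEF or eRF was taken, which gave 54 of the 13771 genes listed. Atx2 KD cells expressed an shRNA against Atx2 (4 libraries), and Control KD cells expressed an shRNA against mCherry, a fluorescent protein that flies do not make (3 libraries). In both groups the hairpin was driven by nos-GAL4::VP16, which is active in the germline, and live cells positive for the bamP-GFP reporter were sorted from dissociated ovaries. bam is active in the dividing cysts that follow the germline stem cell, so the reporter marks an early stage of oogenesis. Each group rests on a single hairpin construct, and the age of the flies and the number pooled per library are not given in the labels used here. Because nothing in the labels ties a library to separate animals, the p-values measure the spread between these libraries, which may be technical.

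Initiation begins when eIF4E binds the cap of an mRNA and eIF4G joins it to the helicase eIF4A, and this assembly recruits the small ribosomal subunit carrying eIF3 and the initiator tRNA held by eIF2. eEF1 then delivers aminoacyl-tRNAs, eEF2 moves the ribosome along the mRNA, and eRF1 with the GTPase eRF3 ends synthesis at a stop codon. Drosophila carries extra copies of several factors, and some of these, such as eIF4E3 and eIF4G2, are best known from their roles in spermatogenesis. Ataxin-2 is an RNA-binding protein that associates with poly(A)-binding protein, and the study's title connects it with the synaptonemal complex of female meiosis.

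Library totals lay between 65262402 and 101809997 estimated counts, and 3 counts corresponded to 0.0295 to 0.046 CPM, a limit that covers counting error only. CPM is a count scaled to a common library size, adjusted by the trimmed mean of M values (TMM). TPM corrects for transcript length, and the deposited TPM values used here carry no TMM adjustment. They are used wherever different genes are compared or summed. Atx2 averaged 233 ± 28.7 CPM in Atx2 KD libraries and 420.2 ± 27.3 CPM in Control KD libraries (SD, n = 4 and 3), a log2 fold change of -0.85 ± 0.10 (standard error; edgeR quasi-likelihood adjusted p = 0.00166). The germline helicase gene vas averaged 398 ± 43.6 CPM in Atx2 KD libraries and 430.4 ± 57.7 CPM in Control KD libraries, and bam itself 41.8 ± 5.33 and 34.4 ± 1.85 CPM. Of the 9 germline markers found, 1 was higher (bgcn) and 3 were lower (otu, AGO3 and zpg). The libraries also held mRNA of somatic cells, and their marker lists did not move together. The summed level of 14 eggshell and yolk genes was 3287 to 19076 CPM in Atx2 KD libraries and 18301 to 36627 CPM in Control KD libraries, with 7 of the 14 lower. Of 9 follicle and escort cell markers 2 were higher and none lower, with a sum of 1378 to 1638 CPM in Atx2 KD libraries and 1133 to 1464 CPM in Control KD libraries. All 3 muscle markers were higher, with a sum of 447 to 645 CPM in Atx2 KD libraries and 241 to 395 CPM in Control KD libraries. The 3 hemocyte markers had a median log2 fold change of 1.03 with none passing (2 higher with the replicate number as a block) and a sum of 266 to 727 CPM in Atx2 KD libraries and 154 to 322 CPM in Control KD libraries, while the 3 fat body markers summed to at most 2.09 CPM in any library. The 13 heat shock genes followed the replicate numbers: their sum was 15371 to 16709 CPM in Atx2 KD libraries 3 and 4 and 15584 CPM in Control KD library 3, whereas it was 7821 to 9179 CPM in Atx2 KD libraries 1 and 2 and 8725 to 10553 CPM in Control KD libraries 1 and 2. The part of these other transcripts in the differences below was not tested, except where a value is given. In sorted bulk RNA, fewer cells of a type and less RNA per cell cannot be told apart.

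Most translation factors were among the abundant mRNAs of these cells. Of the 54 genes, 36 averaged at least 100 TPM over all 7 libraries, and all 36 lay above the 90th percentile of the listed genes. Another 7 averaged 30 to 100 TPM, namely all 5 subunits of eIF2B with eIF2D and eIF4EHP. The remaining 11 averaged below 10 TPM: 10 of them were second copies of a more abundant factor, and the other was eEFSec, the elongation factor for selenocysteine. No member lay between 10 and 30 TPM. eEF1alpha1, which carries aminoacyl-tRNA to the ribosome, was the most abundant at 10935 ± 266 TPM in Atx2 KD libraries and 11393 ± 589 TPM in Control KD libraries. Together the 54 genes held 32269 ± 522 TPM in Atx2 KD libraries and 32159 ± 908 TPM in Control KD libraries, and the ranges of the groups overlapped.

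**Figure D1:**
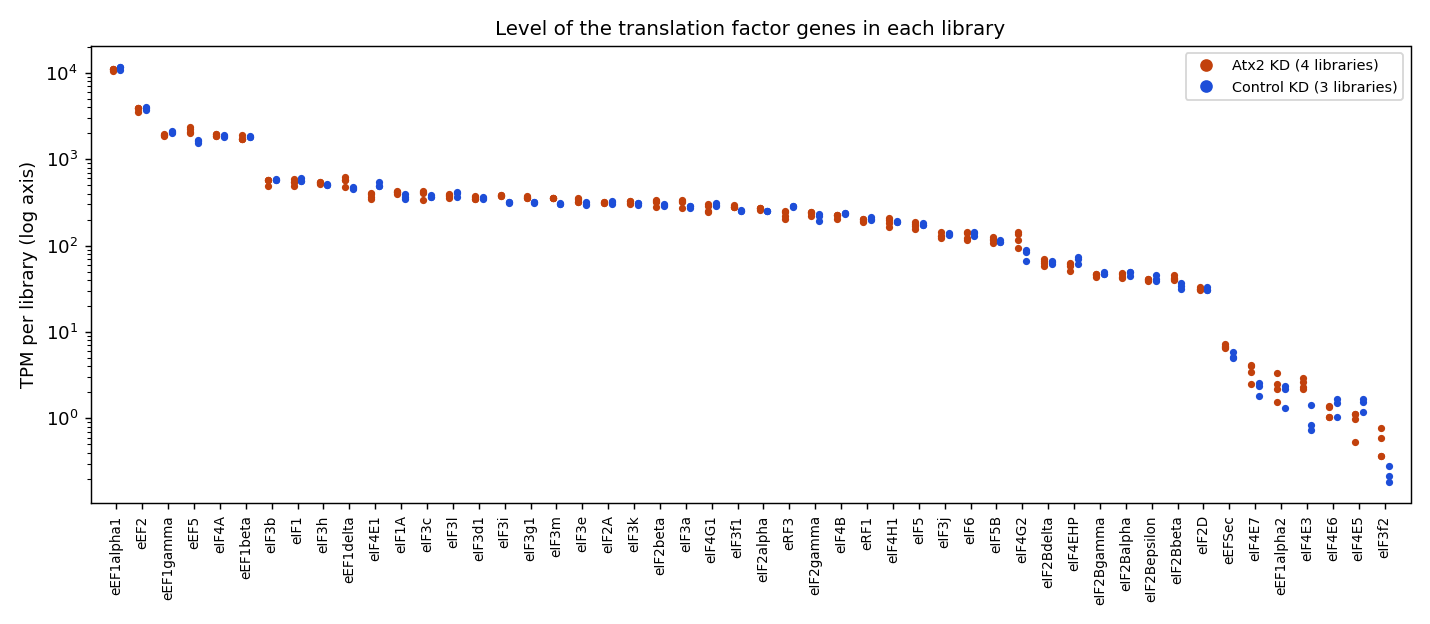
TPM of the translation factor genes in each library (log axis; 4 Atx2 KD points left of 3 Control KD points for each gene), from the most to the least abundant. eIF3d2, eIF3g2, eIF4E4 and eIF4H2, at or near 0, are not drawn. 36 genes averaged at least 100 TPM, and eEFSec, eEF1alpha2, eIF3f2 and the eIF4E copies other than eIF4EHP lie below 10 TPM.

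Few of these genes passed the test for a change with Atx2 knockdown. The calls were 2 in the eIF4E family of cap-binding proteins, 1 in the eIF4G scaffold family and 1 among the release factors. Of 50 genes with enough counts to test, 4 passed an adjusted p of 0.05 (edgeR quasi-likelihood test, Benjamini-Hochberg over all genes tested). eIF4E3 and eIF4G2 were higher, and eIF4E1 and eRF3 were lower. This is 8% of the members, against 13.3% of all 10514 genes tested (5.61% higher and 7.67% lower). The median log2 fold change was -0.013 over the 50 genes and 0.0061 over all genes tested. Values of the groups did not overlap in 17 of the 50 (9 higher and 8 lower in Atx2 KD), or 34%, against 27.4% of all genes tested (12.3% higher and 15.1% lower). The 9 higher include eIF3f2, which had enough counts for the test through the Atx2 KD libraries alone. The replicate numbers were taken to pair the libraries. With the replicate number as a block 12 of 50 passed (7 higher and 5 lower), or 24%, against 28% of all genes (13.8% higher and 14.2% lower). Atx2 KD replicate 4 has no Control KD library of its number, so every fit with the block rests on the libraries numbered 1 to 3. All 4 genes above were among the 12. Leaving out a library left 1 call without Control KD replicate 1 or 2, 2 without Atx2 KD replicate 1 or 4, 3 without Atx2 KD replicate 2 or Control KD replicate 3, and 4 without Atx2 KD replicate 3, while 4.37 to 13.7% of all genes passed.

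**Figure D2:**
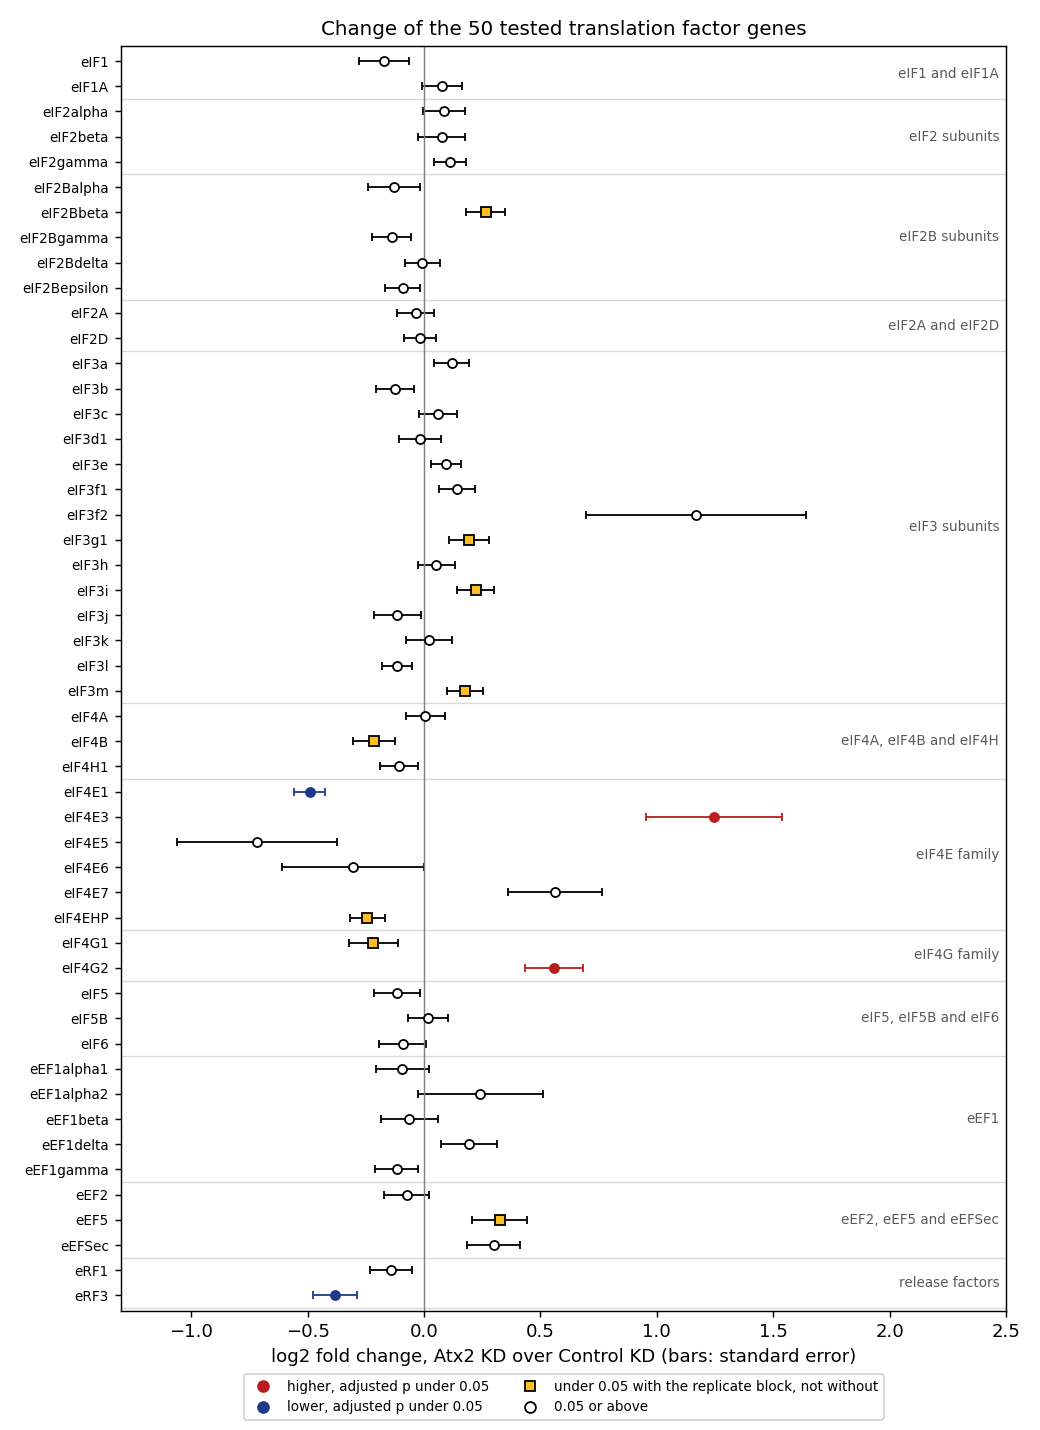
Log2 fold change of the 50 tested genes, Atx2 KD over Control KD, with standard errors, in order of factor group. The point of eIF3f2 carries no weight, because it had enough counts for the test through the Atx2 KD libraries alone. Filled circles mark the 4 genes past an adjusted p of 0.05 and squares the 8 that passed with the replicate block and not without it, while the open points lie at 0.05 or above in both fits.

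The mRNA of the main cap-binding protein was lower in every Atx2 KD library. eIF4E1 (FBgn0015218, arm 3L, 9399618 to 9402460, minus strand) encodes the ubiquitous eIF4E of the fly. It stood at 375, 372, 369 and 399 CPM in Atx2 KD libraries 1 to 4, against 541, 545 and 512 CPM in Control KD libraries 1 to 3. The 4 Atx2 KD values lay close together and all were below the lowest Control KD value. The means were 379 ± 13.5 and 533 ± 18.1 CPM, a log2 fold change of -0.49 ± 0.066 (edgeR adjusted p = 0.00272, and 0.000508 with the replicate block). It passed in all 15 alternatives, with log2 fold changes of -0.54 to -0.42 and adjusted p up to 0.0496. Within libraries numbered 1 and 2 the difference in log2(CPM + 1) was -0.54, and within those numbered 3 and 4, which include 1 Control KD library, it was -0.42.

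A rare member of the same family was higher. eIF4E3 (FBgn0265089, arm 3L, 8229224 to 8230568, plus strand) encodes an eIF4E copy required in Drosophila spermatogenesis. It had 135, 123, 104 and 119 estimated counts in Atx2 KD libraries and 42, 33 and 92 in Control KD libraries, or 1.55, 1.54, 1.38 and 1.79 CPM against 0.525, 0.511 and 0.929 CPM. All 4 Atx2 KD values exceeded the highest Control KD value, which came from library 3. The log2 fold change was 1.25 ± 0.29 (edgeR adjusted p = 0.0262, and 0.0167 with the replicate block), with differences in log2(CPM + 1) of 0.75 within libraries numbered 1 and 2 and 0.42 within those numbered 3 and 4. The adjusted p was 0.0518 without Atx2 KD replicate 1, 0.0659 without Atx2 KD replicate 4, 0.103 without Control KD replicate 1, 0.0922 without Control KD replicate 2, and 0.234 with the mean eggshell and yolk level as a covariate. That mean, in log2 CPM, was 5.34 to 7.98 in Atx2 KD libraries and 8.37 to 9.08 in Control KD libraries, without overlap. The covariate is thus confounded with the knockdown, and a fit with it cannot tell them apart. On the length-corrected scale eIF4E3 was far below eIF4E1, at 2.52 ± 0.333 TPM against 381 ± 29.6 TPM within Atx2 KD libraries.

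The other family members did not pass the test. eIF4EHP, which binds the cap without engaging eIF4G and acts as a translational repressor in the fly embryo, stood at 96.4, 94.6, 103 and 106 CPM in Atx2 KD libraries and 123, 112 and 121 CPM in Control KD libraries. Its groups did not overlap, with a log2 fold change of -0.24 ± 0.074 (edgeR adjusted p = 0.0599), and it was lower at 0.0206 with the replicate block. It shares 447 exon bases (6.97% of its exon length) on the same strand with Syx1A, so reads from that stretch could have been assigned to either gene. eIF4E7 stood at 4.19, 2.91, 3.75 and 4.48 CPM in Atx2 KD libraries and 2.87, 2.22 and 2.69 CPM in Control KD libraries, without overlap and with Control KD library 1 just below the lowest Atx2 KD value (log2 fold change 0.56 ± 0.20, edgeR adjusted p = 0.0991, and 0.0617 with the block). eIF4E5 had 26, 57, 51 and 38 counts in Atx2 KD libraries and 76, 51 and 103 in Control KD libraries. In CPM its groups did not overlap, at 0.298 to 0.715 in Atx2 KD libraries and 0.79 to 1.04 in Control KD libraries (log2 fold change -0.72 ± 0.34, edgeR adjusted p = 0.194). eIF4E6 had 38, 31, 27 and 30 counts against 41, 26 and 59, and the groups overlapped in CPM. eIF4E4 had 0 counts in 6 libraries and 2 in Control KD library 3 and was not tested. The family as a whole held 448 ± 35.2 TPM in Atx2 KD libraries and 583 ± 33.3 TPM in Control KD libraries. eIF4E1 made up 85.1 ± 0.677% of it in Atx2 KD libraries and 87.2 ± 0.764% in Control KD libraries.

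**Figure D3:**
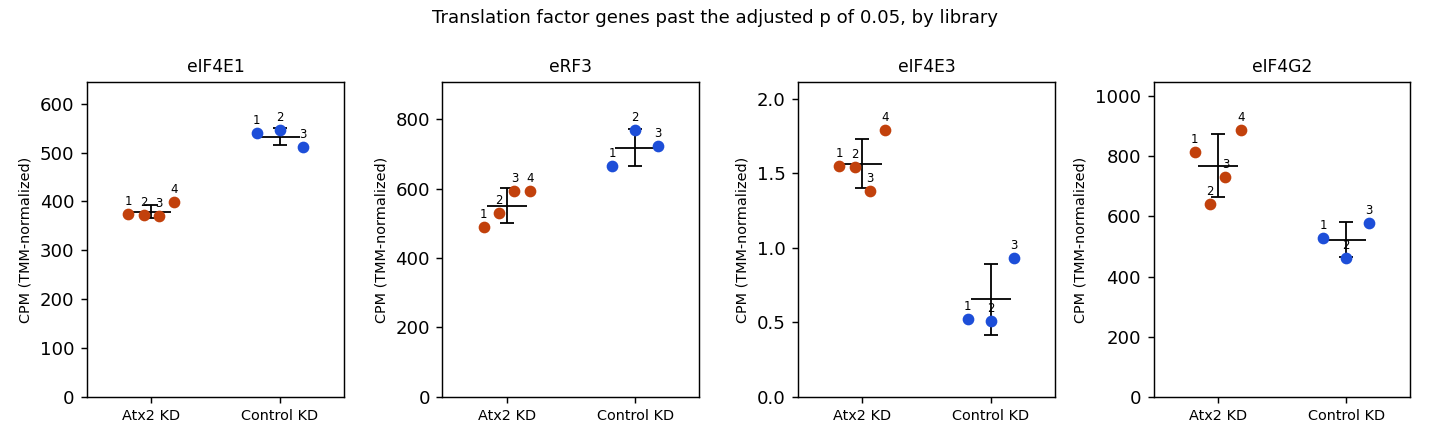
CPM of eIF4E1, eRF3, eIF4E3 and eIF4G2 in each library, Atx2 KD left of Control KD, with the replicate number above each point, the mean as a line and the SD as bars (n = 4 and 3). In every panel the groups do not overlap, and eIF4E3 lies below 2 CPM while the other 3 genes reach from 369 to 887 CPM.

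The second scaffold gene was higher. eIF4G2 (FBgn0260634, arm 3R, 23808285 to 23819237, minus strand), an eIF4G copy needed for meiosis and spermatid differentiation in Drosophila males, stood at 813, 642, 733 and 887 CPM in Atx2 KD libraries, against 528, 463 and 577 CPM in Control KD libraries. Every Atx2 KD value was above every Control KD value, although Atx2 KD library 2 came close to Control KD library 3. The log2 fold change was 0.56 ± 0.12 (edgeR adjusted p = 0.0219, and 0.00192 with the block), and differences in log2(CPM + 1) were 0.55 within libraries numbered 1 and 2 and 0.48 within those numbered 3 and 4. The adjusted p was 0.0517 without Atx2 KD replicate 4, 0.0782 without Control KD replicate 1, 0.0933 without Control KD replicate 2 and 0.105 in the libraries numbered 1 and 2 alone. With the eggshell and yolk covariate, which does not overlap between the groups, the log2 fold change was 0.20 (adjusted p = 0.552). The gene shares 779 exon bases (8.56%) on the same strand with CG33111. eIF4G1 (FBgn0023213, arm 4, 915297 to 930715, minus strand), the main scaffold, stood at 929, 1072, 1173 and 1197 CPM in Atx2 KD libraries and 1197, 1309 and 1305 CPM in Control KD libraries, where the highest Atx2 KD value and the lowest Control KD value nearly met (log2 fold change -0.22 ± 0.10, edgeR adjusted p = 0.192, and 0.0225 with the block).

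eIF4E3 and eIF4G2 are known from the testis, so a list of testis markers was read beside them. The 5 genes summed to 22.2 to 28.0 CPM in Atx2 KD libraries and 30.3 to 34.5 CPM in Control KD libraries. bol, a meiotic regulator that makes up most of the sum, was lower at 23.9 ± 2.62 CPM in Atx2 KD libraries and 31.5 ± 1.93 CPM in Control KD libraries (log2 fold change -0.40, edgeR adjusted p = 0.0304). aly, a regulator of meiotic arrest genes in spermatocytes, averaged 0.753 ± 0.155 CPM in Atx2 KD libraries and 0.114 ± 0.0224 CPM in Control KD libraries. Its counts were 52, 54, 72 and 52 in Atx2 KD libraries and 11, 6 and 11 in Control KD libraries. It had enough counts for the test through the Atx2 KD libraries alone. Its call therefore carries no weight, and no fold change or p is given. can, a testis-specific TAF, averaged 1.47 ± 0.21 and 0.946 ± 0.215 CPM (edgeR adjusted p = 0.138). The spermatid genes dj and Mst87F were at or near 0, with at most 0.0303 CPM for dj and 0.251 CPM for Mst87F in any library, and were not tested. The part of testis-type transcripts in the differences of eIF4E3 and eIF4G2 was not tested.

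Ubiquitous and second copies were then compared as shares, with the TPM of the second copy given as a percentage of the pair. In 12 pairs the second copy was the lower one in all 7 libraries, and 10 pairs were tested, those whose second copy had more than 3 counts in at least 1 library (two-sided exact permutation test over the 35 arrangements of 7 libraries, whose smallest p is 0.0286). The 4 pairs without overlap at that smallest p had a Benjamini-Hochberg adjusted p of 0.0714 over the 10, so none passed 0.05. With 4 pairs at the smallest p this test over 10 pairs could not go lower, so it cannot decide whether these shares changed. eIF4G2 held 35.8, 27.1, 28.4 and 32.1% of the eIF4G pair in Atx2 KD libraries, against 22.7, 18.6 and 22.5% in Control KD libraries (means 30.9 ± 3.93% and 21.3 ± 2.29%). eIF4E3 held 0.661, 0.66, 0.596 and 0.709% of its pair with eIF4E1 in Atx2 KD libraries, against 0.155, 0.149 and 0.29% in Control KD libraries. For eIF4E7 the shares were 1.01, 0.713, 0.918 and 1.01% in Atx2 KD libraries and 0.478, 0.369 and 0.477% in Control KD libraries, and for eIF4EHP they averaged 13.3 ± 0.681% and 11.9 ± 0.596%. All 4 shares were higher in every Atx2 KD library, and 3 of them have the lower eIF4E1 as their denominator. eIF3f2 held 0.185 ± 0.0718% of its pair in Atx2 KD libraries and 0.0903 ± 0.0207% in Control KD libraries without overlap (exact permutation p = 0.114, adjusted p = 0.229). The shares of eIF4E5, eIF4E6, eEF1alpha2, eIF3d2 and eIF4H2 overlapped between the groups, with eIF3d2 and eIF4H2 resting on at most 5 counts in any library.

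**Figure D4:**
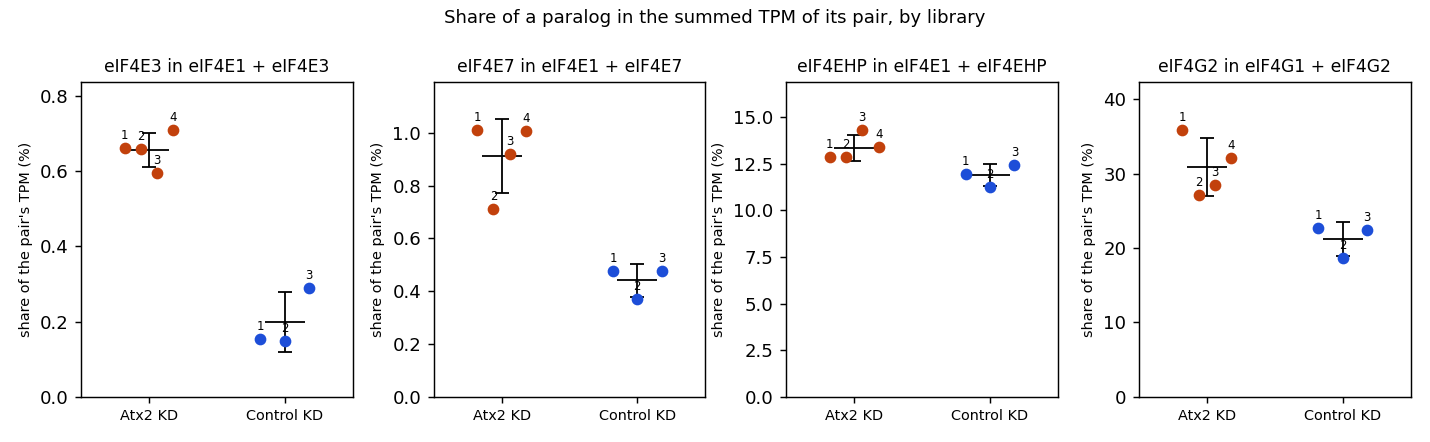
TPM of the second copy as a percentage of its pair in each library, Atx2 KD left of Control KD, with replicate numbers, the mean as a line and the SD as bars (n = 4 and 3). The share of eIF4G2 is 27.1 to 35.8% in Atx2 KD libraries and 18.6 to 22.7% in Control KD libraries, whereas the shares of the eIF4E copies other than eIF4EHP stay near or below 1%.

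The helicase and its helpers did not pass the gene-level test. eIF4A, the RNA helicase that unwinds the leader of the mRNA, stood at 2110.3, 2303, 2152 and 2139 CPM in Atx2 KD libraries and 2111, 2243 and 2150.4 CPM in Control KD libraries (log2 fold change 0.0052 ± 0.083, edgeR adjusted p = 0.978). eIF4B, which stimulates that helicase, stood at 185, 235, 221 and 220.2 CPM in Atx2 KD libraries and 240.2, 265 and 244 CPM in Control KD libraries, with all Atx2 KD values lower. It had an edgeR adjusted p of 0.144 and passed only with the block, at 0.0364. eIF4H1, a second helper of the helicase by its homology to human eIF4H, had a log2 fold change of -0.11 ± 0.083 (edgeR adjusted p = 0.418). Its copy eIF4H2 had at most 4 counts in a library and was not tested. The 3 tested genes had log2 fold changes of -0.21 to 0.0052.

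Delivery of the initiator tRNA had no call. The 3 subunits of eIF2 had log2 fold changes of 0.075 to 0.11, none of which passed, and eIF2beta, the most abundant, stood at 191, 253, 249 and 230.4 CPM in Atx2 KD libraries and 211, 231 and 216 CPM in Control KD libraries. eIF2gamma shares 352 exon bases on the same strand with Su(var)3-9, a histone methyltransferase gene, so its counts are uncertain in that stretch. Of the 5 subunits of eIF2B, which reloads eIF2 with GTP, 4 had log2 fold changes of -0.14 to -0.0083. The other, eIF2Bbeta, stood at 35.9, 39.98, 41.8 and 36.3 CPM in Atx2 KD libraries and 29.9, 31.8 and 34.4 CPM in Control KD libraries without overlap (log2 fold change 0.27 ± 0.084, edgeR adjusted p = 0.0678), and was higher at 0.009995 with the block. eIF2Bdelta was the most abundant subunit at 64.8 ± 5.12 TPM in Atx2 KD libraries and 64.4 ± 3.06 TPM in Control KD libraries. eIF2A and eIF2D, which can bring initiator tRNA without eIF2, had log2 fold changes of -0.036 and -0.018 with edgeR adjusted p of 0.802 and 0.889.

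eIF3, the large complex that holds the small subunit ready, had 16 listed genes and no call among the 14 tested. The 13 genes other than the second copies ran from eIF3j as the lowest in every library to eIF3b or eIF3h as the highest. The ratio of highest to lowest was 3.96 to 4.68 in TPM within a library. The log2 fold changes of these 13 genes ran from -0.13 to 0.22. eIF3b, a scaffold subunit, stood at 1019.9, 1004, 1084 and 1043 CPM in Atx2 KD libraries and 1058, 1221 and 1115 CPM in Control KD libraries (log2 fold change -0.13 ± 0.082, edgeR adjusted p = 0.337). With the replicate block 3 subunits were higher: eIF3i (log2 fold change 0.22 without the block, edgeR adjusted p = 0.0933, and 0.0195 with it), eIF3g1 (0.19, 0.169 and 0.0249) and eIF3m (0.18, 0.165 and 0.0442). eIF3i stood at 276, 319, 291 and 287 CPM in Atx2 KD libraries and 238, 271 and 246 CPM in Control KD libraries. Summed over the genes of the complex the level was 4708 ± 149 TPM in Atx2 KD libraries and 4429 ± 38.3 TPM in Control KD libraries, and the lowest Atx2 KD sum was above the highest Control KD sum. This separation was seen in TPM, which carries no TMM adjustment. The median log2 fold change of all genes tested was 0.041 with limma on log2(TPM + 1), against 0.0061 with edgeR. In CPM only eIF3a, eIF3i and eIF3m of these 13 genes were higher without overlap, and eIF3l was lower. Sums were not made in CPM, and no test was made on such sums. Among the second copies, eIF3f2 had 19, 43, 29 and 15 counts in Atx2 KD libraries and 11, 13 and 12 in Control KD libraries, and it did not pass. It had enough counts for the test through the Atx2 KD libraries alone, so no fold change or p is given. eIF3d2 had 0 to 5 counts, eIF3g2 had 0 in all 7 libraries, which allows up to 0.0295 to 0.046 CPM, and neither was tested. The ubiquitous copies eIF3d1, eIF3f1 and eIF3g1 averaged 359 ± 15.5, 284 ± 6.53 and 365 ± 10.5 TPM in Atx2 KD libraries and 356 ± 13.6, 252 ± 3.98 and 314 ± 5.01 TPM in Control KD libraries.

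The factors of start codon choice and subunit joining had no call. eIF1, which guards start codon choice, stood at 152, 214, 182 and 180.5 CPM in Atx2 KD libraries and 206, 212 and 197 CPM in Control KD libraries (log2 fold change -0.17 ± 0.11, edgeR adjusted p = 0.314), and its partner eIF1A had a log2 fold change of 0.076 ± 0.086. eIF5, which triggers GTP hydrolysis by eIF2, stood at 256, 315, 329 and 311 CPM in Atx2 KD libraries and 310.4, 359 and 315 CPM in Control KD libraries (log2 fold change -0.12 ± 0.10, edgeR adjusted p = 0.464), and it shares 2588 exon bases (80.8%) on the same strand with CG46312, so its counts are uncertain. eIF5B, the GTPase of subunit joining, and eIF6, which keeps free large subunits apart from small ones, had log2 fold changes of 0.016 and -0.091.

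Elongation factors held most of the TPM of these genes, and none of the 8 passed. The eEF1 genes summed to 15182 ± 173 TPM in Atx2 KD libraries and 15749.6 ± 615 TPM in Control KD libraries. eEF1alpha1 stood at 15152, 17023, 16165 and 15707 CPM in Atx2 KD libraries and 16701, 17065 and 17459.9 CPM in Control KD libraries (log2 fold change -0.093 ± 0.11, edgeR adjusted p = 0.622). eEF1beta, eEF1gamma and eEF1delta, the subunits that accompany eEF1alpha and recharge it with GTP, had log2 fold changes of -0.064, -0.12 and 0.19 with edgeR adjusted p of 0.765, 0.432 and 0.32. The copy eEF1alpha2 was at 2.5, 1.54, 3.37 and 2.21 TPM in Atx2 KD libraries and 2.21, 1.33 and 2.38 TPM in Control KD libraries, 0.0219 ± 0.00674% and 0.0172 ± 0.00422% of the pair. The similarity of the copies was not assessed here, and at such a share reads of eEF1alpha1 assigned to eEF1alpha2 could set its level, so it is uncertain. eEF2, the translocase, stood at 7681, 7952, 8117 and 7907 CPM in Atx2 KD libraries and 8177, 8417 and 8413 CPM in Control KD libraries, all lower in Atx2 KD by a small margin (log2 fold change -0.075 ± 0.10, edgeR adjusted p = 0.646). eEF5, the hypusine-bearing factor long called eIF5A, stood at 728, 980.0, 858 and 771 CPM in Atx2 KD libraries and 647, 734 and 617 CPM in Control KD libraries, where only Atx2 KD library 1 fell inside the Control KD range. Its log2 fold change was 0.32 ± 0.12 (edgeR adjusted p = 0.0977), and it was higher at 0.0102 with the block. eEFSec stood at 7.49, 7.65, 7.39 and 7.3 CPM in Atx2 KD libraries and 6.38, 6.04 and 5.75 CPM in Control KD libraries, without overlap (log2 fold change 0.30 ± 0.11, edgeR adjusted p = 0.113).

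Of the release factors, the mRNA of the GTPase was lower and that of the stop codon reader did not pass. eRF3 (FBgn0020443, arm 2L, 12434452 to 12441279, plus strand) stood at 489, 529.6, 592 and 592 CPM in Atx2 KD libraries, against 664, 768 and 722 CPM in Control KD libraries, and the groups did not overlap. The log2 fold change was -0.38 ± 0.094 (edgeR adjusted p = 0.0305, and 0.00305 with the block), with differences in log2(CPM + 1) of -0.49 within libraries numbered 1 and 2 and -0.29 within those numbered 3 and 4. The adjusted p was above 0.05 when any library other than Atx2 KD replicate 3 or 4 was left out (0.0544 to 0.113), at 0.0904 in the libraries numbered 1 and 2 alone and at 0.351 with the eggshell and yolk covariate. eRF1 stood at 214, 256, 248 and 243 CPM in Atx2 KD libraries and 245, 295 and 257 CPM in Control KD libraries, with overlap (log2 fold change -0.14 ± 0.09, edgeR adjusted p = 0.324). The difference between the fold changes of eRF3 and eRF1 was not tested.

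Transcripts of the same factors gave more detail. Of 134 listed transcripts 123 were tested, and 11 from 7 genes passed (4 higher and 7 lower), or 8.94%, against 4.71% of all 21728 transcripts tested (2.05% higher and 2.66% lower). The 4 higher ones include eEF1alpha2-RB, which had enough counts for the test through the Atx2 KD libraries alone, so that its call carries no weight. With the replicate block 8 passed, or 6.5%, against 3.01% of all transcripts. A test of unequal change among the transcripts of a gene (diffSpliceDGE of edgeR, Simes adjusted p) found 2 of 30 members, or 6.67%, against 3.96% of all 5103 genes in that test: eIF4H1 and eIF4A. On simulated data this test made more false calls than its threshold allows. Transcript values are Salmon's division of reads among overlapping models, and the exon positions are those of the Ensembl annotation.

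A larger share of eIF4H1 came from a shorter transcript with another ending. eIF4H1-RC (FBtr0074281), which is 2640 bases long and has a 3′ UTR of 1530 bases and its own coding sequence of 1074 bases, held 14.6, 13.2, 13.6 and 13.5% of the gene's estimated counts in Atx2 KD libraries, against 7.59, 6.72 and 6.81% in Control KD libraries. The lowest Atx2 KD share was far above the highest Control KD share. Its own level was 63.4 ± 4.74 CPM in Atx2 KD libraries and 34.9 ± 1.01 CPM in Control KD libraries (log2 fold change 0.86 ± 0.084, edgeR adjusted p = 0.00608, and 0.0367 with the block), and it passed in all 10 alternatives. The major transcript eIF4H1-RA, with a 3′ UTR of 2887 bases and a coding sequence of 975 bases, held 83.3 ± 0.332% in Atx2 KD libraries and 88.8 ± 1.32% in Control KD libraries, and its level did not pass (edgeR adjusted p = 0.23). The adjusted p for unequal change was 0.0274, and 0.00443 with the block. It was above 0.05 without Atx2 KD replicate 1 (0.0889), Atx2 KD replicate 3 (0.0918), Atx2 KD replicate 4 (0.0625) or Control KD replicate 2 (0.256), and a limma test on log2(share + 1) gave 0.0439.

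In eIF4A the gene level stayed within the spread while 2 transcript models were higher. eIF4A-RA (FBtr0079175) has the same coding sequence and 5′ UTR length as the major eIF4A-RC and a 3′ UTR of 409 bases in place of 271. It held 11.9, 13.3, 10.2 and 11.97% of the counts of eIF4A in Atx2 KD libraries, against 7.14, 6.32 and 6.39% in Control KD libraries. Its level was 258 ± 37.04 CPM in Atx2 KD libraries and 143 ± 7.7 CPM in Control KD libraries (log2 fold change 0.85 ± 0.12, edgeR adjusted p = 0.0138, and 0.0469 with the block), with an adjusted p of 0.0539 without Control KD replicate 1 and 0.0663 without Control KD replicate 2. eIF4A-RC held 64.2 ± 2.11% in Atx2 KD libraries and 66.8 ± 0.289% in Control KD libraries. eIF4A-RF, with a 3′ UTR of 501 bases, held 5.11, 4.57, 5.33 and 4.72% in Atx2 KD libraries and 3.49, 3.81 and 4.08% in Control KD libraries, and its call (log2 fold change 0.39 ± 0.084, edgeR adjusted p = 0.0468, and 0.0647 with the block) ended with any 1 library left out (0.0636 to 0.149). The adjusted p for unequal change was 0.000107 (0.00166 with the block, at most 0.00738 with any library left out), whereas limma on log2(share + 1) gave 0.093. The gene overlaps an annotated copy of the transposable element blood by 37 exon bases.

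**Figure D5:**
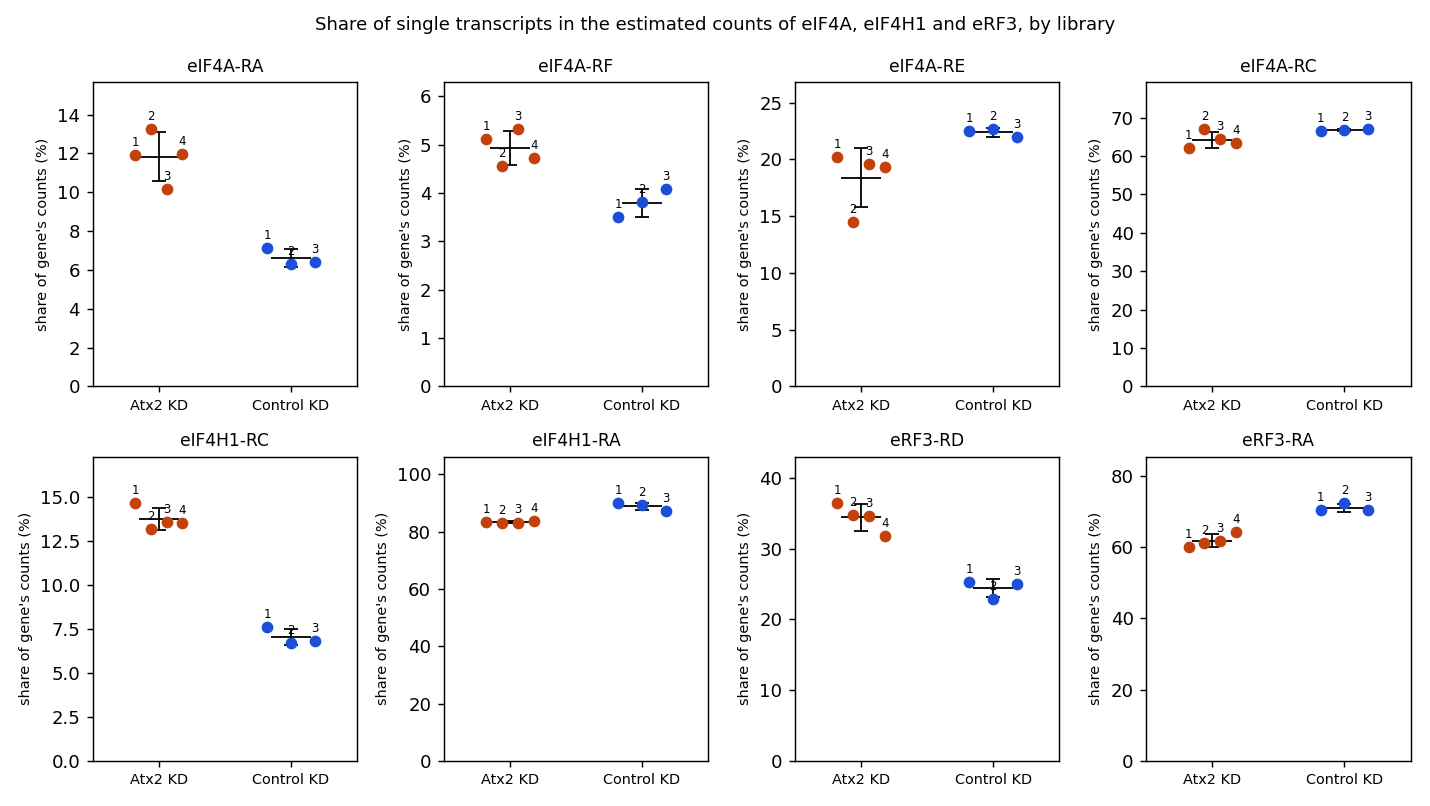
Share of selected transcripts in the estimated counts of their gene, by library, Atx2 KD left of Control KD, with the mean as a line and the SD as bars (n = 4 and 3). eIF4H1-RC lies at 13.2 to 14.6% in Atx2 KD libraries and 6.72 to 7.59% in Control KD libraries, and eIF4A-RA at 10.2 to 13.3% and 6.32 to 7.14%.

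For eIF4E1, eRF3 and eIF4B single transcripts passed, and unequal change was not called. eIF4E1-RD, with a 5′ UTR of 691 bases, was lower (log2 fold change -0.68 ± 0.079, edgeR adjusted p = 0.00832, and 0.0325 with the block) and passed in all 10 alternatives, and eIF4E1-RB, with a 5′ UTR of 452 bases and the same coding sequence, was lower as well (log2 fold change -0.32 ± 0.063, edgeR adjusted p = 0.0365, and 0.065 with the block). eIF4E1-RD held 30.1 ± 1.27% of the gene's counts in Atx2 KD libraries and 34.5 ± 0.187% in Control KD libraries, and eIF4E1-RB 44.97 ± 2.28% and 40.04 ± 0.172%. eRF3-RA, with a 5′ UTR of 545 bases, was lower (log2 fold change -0.58 ± 0.11, edgeR adjusted p = 0.0345, and 0.0464 with the block) and held 61.8 ± 1.8% of the counts of eRF3 in Atx2 KD libraries and 71.02 ± 1.13% in Control KD libraries. eRF3-RB, which shares that 5′ UTR length and has a longer 3′ UTR, was lower too (log2 fold change -0.67 ± 0.13, edgeR adjusted p = 0.0347, and 0.0413 with the block). eRF3-RD, with a 5′ UTR of 105 bases and the same coding sequence, held 34.4 ± 1.91% in Atx2 KD libraries and 24.4 ± 1.3% in Control KD libraries without overlap, and its level did not pass (log2 fold change 0.12 ± 0.073, edgeR adjusted p = 0.4). Unequal change in eRF3 had an adjusted p of 0.142, and 0.00463 with the block. eIF4B-RA held 39.8 ± 2.35% of the counts of eIF4B in Atx2 KD libraries and 50.6 ± 2.86% in Control KD libraries, and its level was lower (log2 fold change -0.56 ± 0.10, edgeR adjusted p = 0.0274, and 0.0431 with the block). The call of eRF3-RA ended with any 1 library left out, at adjusted p of 0.0504 to 0.11, and that of eRF3-RB without any library other than Atx2 KD replicate 4 (0.0645 to 0.113). The call of eIF4E1-RB ended without Atx2 KD replicate 1, 3 or 4 or Control KD replicate 1 or 2 (0.075 to 0.132), and that of eIF4B-RA without Atx2 KD replicate 4 or any Control KD replicate (0.0563 to 0.0967). eEF1alpha2-RB had 87.2, 251, 14.5 and 93.1 counts in Atx2 KD libraries and 0, 0.177 and 0 in Control KD libraries, and the 4 models of that gene share 1 coding sequence and differ by at most 15 bases in 5′ UTR length, so no fold change or p is given. The remaining calls were eEF2-RC (edgeR adjusted p = 0.0412), which ended with any 1 library left out (0.0588 to 0.113), and eIF4E1-RF (0.0423), which ended without Atx2 KD replicate 1, 2 or 3 or Control KD replicate 1 or 2 (0.0719 to 0.146).

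Genes that act on these factors were counted from a list of 44 names, of which 31 were found and tested. None was higher and 3 were lower, 9.68% against 13.3% of all genes, and with the block 3 were higher and 7 lower, where 28% of all genes passed. cup, which binds eIF4E and represses oskar mRNA in the oocyte, stood at 194, 184, 161 and 212 CPM in Atx2 KD libraries and 323, 326 and 258 CPM in Control KD libraries (log2 fold change -0.69 ± 0.11, edgeR adjusted p = 0.0066). It passed in 14 of 15 alternatives. The exon bases that cup shares with other annotated genes on the same strand add up to 4306, equal to its exon length. Its counts are therefore uncertain. Of 4 markers of later germline stages, 2 were lower as well, and 4 of 4 with the block, and the median log2 fold change was -0.59. They summed to 1027 to 1538 CPM in Atx2 KD libraries and 1523 to 2366 CPM in Control KD libraries. The part of later stages in the difference of cup was not tested. Thor, the fly 4E-BP that competes with eIF4G for eIF4E, stood at 177, 179.6, 127 and 141 CPM in Atx2 KD libraries and 219, 233 and 202 CPM in Control KD libraries (log2 fold change -0.48 ± 0.13, edgeR adjusted p = 0.039). It passed in 7 of 15. 4E-T, another eIF4E-binding protein gene, stood at 163, 166, 161 and 178 CPM in Atx2 KD libraries and 193, 195 and 177 CPM in Control KD libraries with overlap (log2 fold change -0.17 ± 0.069, edgeR adjusted p = 0.127, and 0.0401 with the block). CG9281, an ABCF-type ATPase gene, had 521 ± 22.9 CPM in Atx2 KD libraries and 636 ± 48.5 CPM in Control KD libraries (log2 fold change -0.29 ± 0.078, edgeR adjusted p = 0.0424, 5 of 15). pAbp, the poly(A)-binding protein gene, averaged 3786 ± 145 and 4642 ± 127 CPM (log2 fold change -0.29, edgeR adjusted p = 0.0638), and was lower at 0.0146 with the block.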

How the data were processed

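RNA was measured in 7 libraries of sorted bamP-GFP ovarian cells, 4 Atx2 KD and 3 Control KD. Sorting followed an enzyme digestion at 37 °C, per the labels' protocols, and directional libraries were made from total RNA depleted of ribosomal RNA, without poly(A) selection. The submitters' processing notes name bcl2fastq 2.20, Trim Galore 0.6.7, cutadapt 2.10 and Salmon 1.9.0. The index, genome build and use of strand are not given in the sources used here. The deposited estimated counts are Salmon's and not normalized, per the labels, and the deposited TPM values come from the same output, per the labels. Gene values equalled the sums of transcript values.

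Estimated counts were rounded, filtered with filterByExpr (minimum count 10, minimum total 15), scaled by TMM and tested with edgeR 4.0.16 in R 4.3.3 (quasi-likelihood test, group as the only term, two-sided, Benjamini-Hochberg over all features). The standard error is the log2 fold change divided by the square root of F. All fold changes are Atx2 KD over Control KD. Transcripts were tested alike, and unequal change with diffSpliceDGE. The tests were checked on simulated data. There the gene-level test recovered 3.39% of 1.25-fold, 27.1% of 1.5-fold and 68.7% of 2-fold changes, and 8.22% of its calls were false. A gene without a call may therefore still have changed. Alternatives used DESeq2 1.42.0, upper-quartile scaling, RLE size factors, no filter, the replicate block, limma 3.58.1 on log2(TPM + 1), libraries numbered 1 and 2, an eggshell and yolk covariate, and each library left out.

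Libraries within a group differed by a chi-square per degree of freedom of 45.6 to 236, so each counted as 1 replicate. The titles number the replicates, and deviations of same-numbered libraries from their group means correlated at 0.146, 0.336 and 0.519 for numbers 1, 2 and 3. Libraries with different numbers correlated at -0.383 to 0.157, so number 1 does not stand out from them. The numbers were taken to pair the libraries, which is less certain for number 1.

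Symbols and positions come from Ensembl release 115 (BDGP6.54), matched by FlyBase ID. The genes, lists and tests were chosen with earlier results of these data known. Every member was counted, and the text names those past an adjusted p of 0.05, both members of each pair, the most abundant gene of each factor group, and up to 8 transcripts and 8 related genes past the test. Other genes and transcripts, among them the calls with the block, were named after their values were seen. The pair of eIF4A with its exon junction copy was not analysed here, and factors whose symbols differ only in a final number but are not copies, such as eRF1 and eRF3, were not paired. Sequences were not used here.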

Additional observations from a re-analysis of the deposited data

How the results depend on the processing

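The 4 called genes became 10 (7 higher, 3 lower) with DESeq2 (21.3% of all genes called), 7 (5 higher) with upper-quartile scaling (13.4%), 8 (6 higher) with limma on log2(TPM + 1) (10.7%), 12 (7 higher, 5 lower) with the replicate block (28%), and 2 (1 higher, 1 lower) in libraries numbered 1 and 2 (6%). With the eggshell and yolk covariate 2 passed (2.95% of all genes), eIF4E1 as lower and eEF5, which is not among the 4, as higher. This covariate does not overlap between the groups, so it is confounded with the knockdown. Without single libraries they were 1 to 4 (0 to 2 higher, 1 to 2 lower), where 4.37 to 13.7% of all genes passed. Of the genes called with the block and not without it, eEF5, eIF2Bbeta, eIF3i and eIF4EHP also passed with DESeq2 (adjusted p of 0.0245 to 0.0342), and eEF5, eIF3i, eIF3g1 and eIF3m with limma (0.0108 to 0.028). The 11 called transcripts became 24 with DESeq2 (15.7% of all transcripts) and 2 to 6 without single libraries (0.708 to 3.65%). The 2 genes with unequal change became 1 with limma on log2(share + 1) (2.63% of all genes in that test) and 1 to 3 without single libraries (2.63 to 4.01%). The causes were not tested.

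Signs turned for small, uncalled log2 fold changes. With the covariate eEF1alpha1 was 0.0396, eEF1alpha2 -0.31, eIF1 0.20, eIF2A 0.15, eIF2Bdelta 0.079, eIF3d1 0.20, eIF4B 0.051 and eIF5 0.12. With upper-quartile scaling, which set the median of all genes at 0.06, eIF2A was 0.017, eIF2Bdelta 0.046 and eIF3d1 0.037. With limma eIF2Bdelta was 0.0069 and eIF3d1 0.011, and in libraries numbered 1 and 2 eIF2A was 0.022. Without single libraries eIF4A ranged from -0.023 to 0.029, eIF2Bdelta from -0.0404 to 0.034 and eIF3d1 from -0.079 to 0.034. The share difference of eIF4E5 ranged from -0.063 to 0.00037 percentage points and that of eIF3d2 from -0.00201 to 0.0022, with -0.0014 in libraries numbered 1 and 2. Of 495 alternative values for 33 genes, 416 kept their direction and their side of the threshold, which includes uncalled genes that stayed uncalled. Another 36 lost a call, 21 gained one and 22 turned sign. Of the 4 called genes, eIF4E1 passed in 15 of 15 alternatives, eIF4E3 and eIF4G2 in 10 each and eRF3 in 8.

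At 3 counts per library, levels under 0.0295 to 0.046 CPM could not be seen. With 3 pairs of libraries a within-pair permutation of shares cannot go below p = 0.25, and no other test of the paralog shares with the replicate block was run.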
